A study of Mus musculus with 18 samples.

Results

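The integrated stress response and the unfolded protein response were followed in ED1SQ4 cells through 10 genes: *Atf4*, *Asns*, *Trib3*, *Chac1*, *Ddit3*, *Ppp1r15a*, *Hspa5*, *Xbp1*, *Herpud1* and *Dnajb9*. Their rows were found by symbol. They took up 11 of the 55450 rows of the gene table, since *Ddit3* has 2 rows, and all 10 genes passed the filter on low counts in each comparison. ED1SQ4 is a murine lung cancer line from a transgenic mouse that overexpressed cyclin E in the lung, so vehicle and treated cells share that background. Cells received vehicle or 0.5 μM CYC065 (fadraciclib), which inhibits CDK2 and CDK9, for 72 hours. They were sequenced after DNA staining and sorting into diploid (2N) and polyploid (4N) cells, or as samples labelled 'all cell'. The latter are taken here as unsorted cells. A sort by DNA content alone does not separate polyploid cells from diploid cells in G2 or mitosis.

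Each of the 6 conditions has 3 replicate columns that carry the name of 1 library. Over genes with whole counts, chi-square per degree of freedom among these columns was 0.992 to 1.02, so for these genes the columns differed by no more than sampling noise. Over genes with fractional counts, it was 4.94 to 8.85. Both ranges cover only genes above a minimum mean count, 10933 to 11632 whole and 2096 to 2268 fractional genes in a condition. Of all genes in the table, 9.66% hold a fractional count, *Ddit3* among them. The 3 columns were counted as 1 sample. The summed libraries held 54750203 to 62795507 counts. A comparison of 2 conditions is therefore given as a log2 fold change with a 95% counting interval and no P value. The interval does not cover the spread between cultures, and counts of PCR-amplified reads without molecular identifiers are not independent molecules. Across all tested genes the text calls a difference past 1 on the log2 scale, and an edgeR quasi-likelihood fit over all 6 libraries, with Benjamini-Hochberg adjustment, uses the populations as the repeats of the treatment. The labels and methods do not say whether unsorted, 2N and 4N cells came from the same cultures, and the P values measure only the spread between these libraries.

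Markers of the labelled tissue were close to absent. The summed level of 5 epithelial markers was 0.429 to 1.32 CPM (counts scaled to a common library size), *Epcam* had 2 counts in all libraries together, and *Nkx2-1*, a regulator of lung epithelium, had 0, which allows up to 3 counts in a library. The summed level of 4 alveolar type II markers was at most 0.088 CPM, that of 4 leukocyte markers at most 0.158 CPM, and that of 3 endothelial markers 0.515 to 1.82 CPM. The 5 mesenchymal markers summed to 10390 to 17430 CPM. That sum was 12090, 11070 and 10390 CPM in vehicle unsorted, 2N and 4N cells and 17430, 14010 and 11620 CPM after CYC065, higher after treatment in each population. *Vim* moved the other way, at 3420, 4438 and 4627 CPM under vehicle and 2144, 2496 and 2451 CPM after CYC065. The part of these markers in the results below was not tested.

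In the integrated stress response, the kinases PERK, GCN2, PKR and HRI phosphorylate the translation initiation factor eIF2α. General protein synthesis falls, while the transcription factor ATF4 is translated more and drives genes for amino acid supply, redox balance and, through CHOP (the product of *Ddit3*), cell death. PERK is also a sensor of the unfolded protein response, which reports misfolded protein in the endoplasmic reticulum (ER). Its other sensors, IRE1 and ATF6, act through spliced XBP1 and through cleaved ATF6 on ER chaperones and on ER-associated degradation. Gene-level counts measure mRNA and do not show eIF2α phosphorylation, ATF4 translation or XBP1 splicing.

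Promoters of the 10 genes were taken from RefSeq (build GRCm38.p6, the assembly of mm10), as windows of 250 bases before to 50 bases after the annotated start. The RefSeq starts can differ from the gene coordinates given below, which are those of GENCODE M21. All 10 genes matched. Both strands were searched for letters known to be bound by factors of these responses. The C/EBP-ATF response element was written as TGATGNAA, the unfolded protein response element as TGACGTGG and the cyclic AMP response element as TGACGTCA. The ER stress response element was written as CCAAT and CCACG with a spacer of 9 bases, and its second form as ATTGG and CCACG with a spacer of 1 base. No matches in the members overlapped each other.

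The C/EBP-ATF letters stood in the windows of 4 members, *Trib3*, *Asns*, *Chac1* and *Herpud1*, and in 3.97% of the 32851 promoter windows. The ER stress response element stood in *Hspa5* (0.119% of windows), its second form in *Herpud1* (0.0365%) and the cyclic AMP response element in *Ppp1r15a* (1.79%). The unfolded protein response element (0.676%) stood in none of the 10. The windows of *Atf4*, *Ddit3*, *Xbp1* and *Dnajb9* held none of the 5 motifs. The *Dnajb9* window, chr12:44210019-44210318, lies within the GENCODE gene given below, so bases before that gene's start were not searched. A match is a description of these letters and shows no binding. The stretches with a match are printed 5′ to 3′ on the strand of the gene, with the matched letters in capitals. Members with and without a match differed among themselves in their response to CYC065, and a link between letters and response was not tested. For *Trib3*, whose match lies 15 to 22 bases after the RefSeq start, 30 bases around it are shown. For the others, the 250 bases before the RefSeq start are shown.
Trib3: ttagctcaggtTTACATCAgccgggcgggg
Asns: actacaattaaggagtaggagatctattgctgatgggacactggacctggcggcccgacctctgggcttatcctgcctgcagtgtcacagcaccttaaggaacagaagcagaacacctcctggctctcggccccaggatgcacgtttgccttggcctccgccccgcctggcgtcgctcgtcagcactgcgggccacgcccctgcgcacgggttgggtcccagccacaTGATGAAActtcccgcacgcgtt
Chac1: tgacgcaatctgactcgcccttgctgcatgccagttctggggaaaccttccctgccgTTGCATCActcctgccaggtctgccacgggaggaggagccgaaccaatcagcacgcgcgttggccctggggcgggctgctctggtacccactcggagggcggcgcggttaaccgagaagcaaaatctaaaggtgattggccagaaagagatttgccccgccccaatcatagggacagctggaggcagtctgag
Herpud1: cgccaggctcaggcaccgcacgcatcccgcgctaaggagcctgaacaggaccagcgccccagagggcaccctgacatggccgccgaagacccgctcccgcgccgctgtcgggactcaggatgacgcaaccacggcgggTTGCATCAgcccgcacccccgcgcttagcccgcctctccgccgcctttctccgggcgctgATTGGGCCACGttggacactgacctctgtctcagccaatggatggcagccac
Hspa5: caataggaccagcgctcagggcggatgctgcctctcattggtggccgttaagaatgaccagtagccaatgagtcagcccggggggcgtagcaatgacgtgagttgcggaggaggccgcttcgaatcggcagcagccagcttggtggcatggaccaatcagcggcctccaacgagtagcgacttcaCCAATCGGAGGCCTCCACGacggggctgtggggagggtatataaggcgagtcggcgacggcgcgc
Ppp1r15a: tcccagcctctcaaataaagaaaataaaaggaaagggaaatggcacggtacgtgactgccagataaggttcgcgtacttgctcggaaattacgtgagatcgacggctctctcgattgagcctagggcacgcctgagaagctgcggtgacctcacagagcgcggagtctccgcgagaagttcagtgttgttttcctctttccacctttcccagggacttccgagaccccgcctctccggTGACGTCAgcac
*Trib3* was read from chr2:152344028-152344057 on the minus strand, *Asns* from chr6:7693210-7693459 on the minus strand and *Chac1* from chr2:119350992-119351241 on the plus strand. *Herpud1* was read from chr8:94386179-94386428 on the plus strand, *Hspa5* from chr2:34771840-34772089 on the plus strand and *Ppp1r15a* from chr7:45526269-45526518 on the minus strand. In the first 4, the capitals mark the C/EBP-ATF letters, in *Herpud1* followed by the second form of the ER stress response element. The *Asns* match lies 23 to 16 bases before the RefSeq start. The *Chac1* match lies 193 to 186 bases before it and the *Herpud1* C/EBP-ATF match 112 to 105 bases before it. By the GENCODE coordinates below, the *Asns* and *Hspa5* matches lie inside the gene, and the *Trib3* match lies before the gene's start. The match lies on the gene's own strand in *Asns* and on the opposite strand in *Trib3*, *Chac1* and *Herpud1*. In *Hspa5* the capitals mark the ER stress response element, with the spacer included, and in *Ppp1r15a* the cyclic AMP response element.

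The design asks whether CYC065 changed these genes, and whether it did so alike in sorted and unsorted cells. Of the 10 members, 4 had higher levels after CYC065 in 2N, 4N and unsorted cells, with counting intervals that excluded 0. These were *Ddit3*, *Ppp1r15a*, *Herpud1* and *Dnajb9*. *Atf4* was the only member with lower levels in all 3. The other 5, *Trib3*, *Asns*, *Chac1*, *Hspa5* and *Xbp1*, were higher in both sorted populations and lower in unsorted cells. Of 13537 genes tested in all 3 comparisons, 30% were higher in all 3, 31.7% were lower in all 3, and 2.27% were higher in 2N and 4N and lower in unsorted cells. The opposite pattern, lower in sorted and higher in unsorted cells, was found in 2.47% of genes and 0 members. In bulk libraries, fewer cells with a transcript and less of it per cell cannot be told apart.

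**Figure D1:**
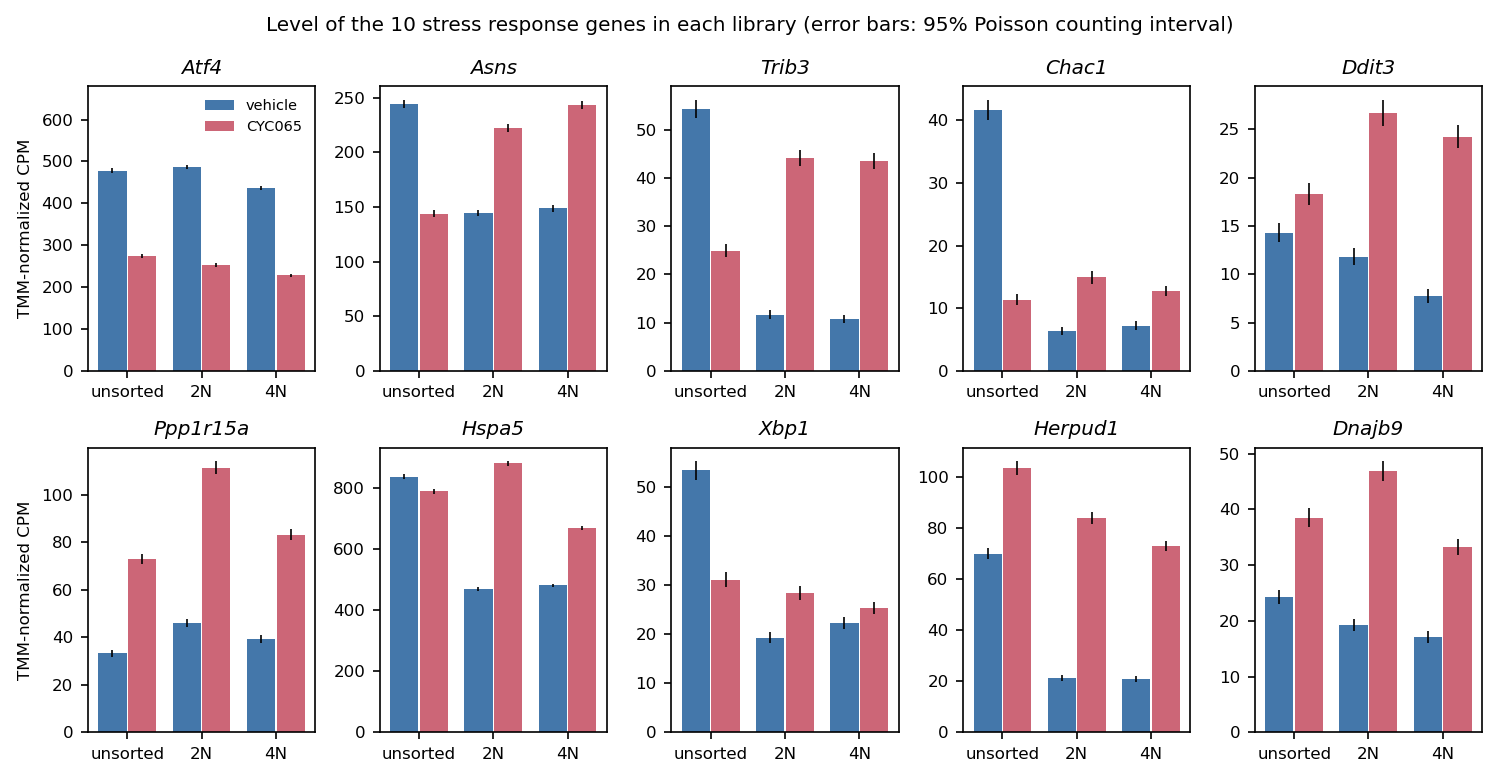
Level of each of the 10 genes in the 6 libraries, as TMM-normalized CPM on axes that start at 0 and differ between genes. Bars are 1 library each, blue for vehicle and red for CYC065, and error bars are 95% Poisson counting intervals. Trib3 stood at 54.3 CPM in vehicle unsorted cells, against 11.6 and 10.7 CPM in vehicle 2N and 4N cells.

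*Atf4*, at chr15:80255184-80257541 on the plus strand, encodes the central transcription factor of the integrated stress response. Its level was 478, 487 and 437 CPM in vehicle unsorted, 2N and 4N cells and 274, 253 and 228 CPM in the same populations after CYC065. All 3 treated libraries lay below all 3 vehicle libraries. For *Atf4* and the members below, the share of all genes whose treated and vehicle libraries separate was not counted. The edgeR fit over the 3 populations called 27.7% of all genes higher and 27.1% lower, so such a separation alone does not set a gene apart. The log2 fold change was -0.94 (-0.97 to -0.91) in 2N, -0.94 (-0.96 to -0.91) in 4N and -0.80 (-0.83 to -0.77) in unsorted cells. Over the 3 populations *Atf4* mRNA fell by 0.89 on the log2 scale (edgeR quasi-likelihood test, adjusted P = 0.00081).

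*Asns*, at chr6:7675169-7693254 on the minus strand, encodes asparagine synthetase and is a classic ATF4 target. Its level was 244, 144 and 149 CPM in vehicle unsorted, 2N and 4N cells and 144, 222 and 243 CPM after CYC065. Vehicle unsorted and both treated sorted libraries were the high ones, and treated unsorted cells were as low as vehicle sorted cells. On the log2 scale CYC065 gave 0.62 (0.58 to 0.66) in 2N, 0.71 (0.67 to 0.75) in 4N and -0.76 (-0.80 to -0.72) in unsorted cells.

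*Trib3*, at chr2:152337422-152344032 on the minus strand, encodes a pseudokinase induced by ATF4 and CHOP that restrains ATF4 activity. Its level was 54.3, 11.6 and 10.7 CPM in vehicle unsorted, 2N and 4N cells and 24.9, 44.1 and 43.5 CPM after CYC065. The vehicle libraries held both the highest and the lowest levels, and treated 2N and 4N cells did not differ beyond counting error. CYC065 gave log2 fold changes of 1.92 (1.80 to 2.05) in 2N and 2.02 (1.90 to 2.15) in 4N cells, or 3.79-fold and 4.05-fold. In unsorted cells it gave -1.12 (-1.22 to -1.03).

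*Chac1*, at chr2:119351229-119354381 on the plus strand, encodes an enzyme that degrades glutathione and is induced late in the ATF4 and CHOP cascade. Its level was 41.6, 6.31 and 7.19 CPM in vehicle unsorted, 2N and 4N cells and 11.4, 14.9 and 12.7 CPM after CYC065. Vehicle unsorted cells stood far above the other libraries. CYC065 over vehicle gave 1.24 (1.07 to 1.43) in 2N, 0.82 (0.66 to 0.99) in 4N and -1.87 (-2.0 to -1.74) in unsorted cells. The widest range over the 6 libraries among the members was that of *Chac1*, at 6.60-fold, and the narrowest that of *Asns*, at 1.70-fold.

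*Ddit3*, at chr10:127290774-127296288 on the plus strand, encodes CHOP, a transcription factor linked to cell death in prolonged ER stress. Its level was 14.3, 11.8 and 7.70 CPM in vehicle unsorted, 2N and 4N cells and 18.3, 26.7 and 24.2 CPM after CYC065. All treated libraries lay above all vehicle libraries. The log2 fold change was 1.18 (1.05 to 1.31) in 2N, 1.65 (1.50 to 1.80) in 4N and 0.35 (0.22 to 0.49) in unsorted cells, and over the 3 populations *Ddit3* rose by 1.06 (edgeR quasi-likelihood test, adjusted P = 0.0136). Its second row, a gene model that overlaps the first, held 0 to 3 counts per library. *Ddit3* also overlaps *Mars* on the other strand, and the strand setting of the counting is not given in the sources used here. *Mars* was lower after CYC065, by -0.42, -0.29 and -0.68 on the log2 scale in 2N, 4N and unsorted cells.

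*Ppp1r15a*, at chr7:45522916-45526268 on the minus strand, encodes GADD34, which directs a phosphatase to eIF2α and so closes the response. Its level was 33.2, 45.9 and 39.4 CPM in vehicle unsorted, 2N and 4N cells and 72.9, 111 and 83.1 CPM after CYC065. The groups did not overlap, and the lowest vehicle level was in unsorted cells. It gave log2 fold changes of 1.28 (1.21 to 1.34) in 2N, 1.08 (1.01 to 1.15) in 4N and 1.14 (1.06 to 1.22) in unsorted cells. Over the 3 populations it rose by 1.16 (edgeR quasi-likelihood test, adjusted P = 0.00050). It overlaps *Tulp2* on the other strand.

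*Xbp1*, at chr11:5520659-5525893 on the plus strand, encodes the transcription factor that IRE1 activates by splicing. Its level was 53.4, 19.2 and 22.3 CPM in vehicle unsorted, 2N and 4N cells and 31.1, 28.4 and 25.3 CPM after CYC065. Vehicle libraries spread widely, while the treated libraries lay close together, between vehicle unsorted and vehicle sorted cells. Against vehicle, the log2 fold change was 0.56 (0.45 to 0.67) in 2N, 0.18 (0.08 to 0.29) in 4N and -0.78 (-0.87 to -0.69) in unsorted cells.

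*Hspa5*, at chr2:34771970-34777547 on the plus strand, encodes BiP, the main ER chaperone of the HSP70 family and a standard readout of ATF6 and XBP1. Its level was 838, 470 and 482 CPM in vehicle unsorted, 2N and 4N cells and 789, 881 and 668 CPM after CYC065. The 2 vehicle sorted libraries were the low ones. As compared with vehicle, the log2 difference was 0.91 (0.89 to 0.93) in 2N, 0.47 (0.45 to 0.49) in 4N and -0.09 (-0.10 to -0.07) in unsorted cells, so the opposite sign in unsorted cells was small for this gene.

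*Herpud1*, at chr8:94386438-94395377 on the plus strand, encodes an ER membrane protein of the degradation machinery. Its level was 70.1, 21.3 and 20.8 CPM in vehicle unsorted, 2N and 4N cells and 104, 84.1 and 73.1 CPM after CYC065. All treated libraries lay above all vehicle libraries, with vehicle unsorted just below treated 4N cells. The log2 fold change was 1.98 (1.89 to 2.07) in 2N, 1.81 (1.72 to 1.90) in 4N and 0.56 (0.50 to 0.62) in unsorted cells, and over the populations *Herpud1* rose by 1.45 (edgeR quasi-likelihood test, adjusted P = 0.00703). It overlaps the antisense gene *Gm15890*.

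*Dnajb9*, at chr12:44205559-44210326 on the minus strand, encodes ERdj4, a cochaperone of BiP and a target of spliced XBP1. Its level was 24.3, 19.2 and 17.1 CPM in vehicle unsorted, 2N and 4N cells and 38.5, 46.9 and 33.3 CPM after CYC065. The groups did not overlap. On the log2 scale CYC065 gave 1.28 (1.18 to 1.39) in 2N, 0.96 (0.85 to 1.07) in 4N and 0.67 (0.57 to 0.77) in unsorted cells, and over the populations *Dnajb9* rose by 0.97 (edgeR quasi-likelihood test, adjusted P = 0.00248). It overlaps the microRNA gene *Mir5627* on the other strand.

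**Figure D2:**
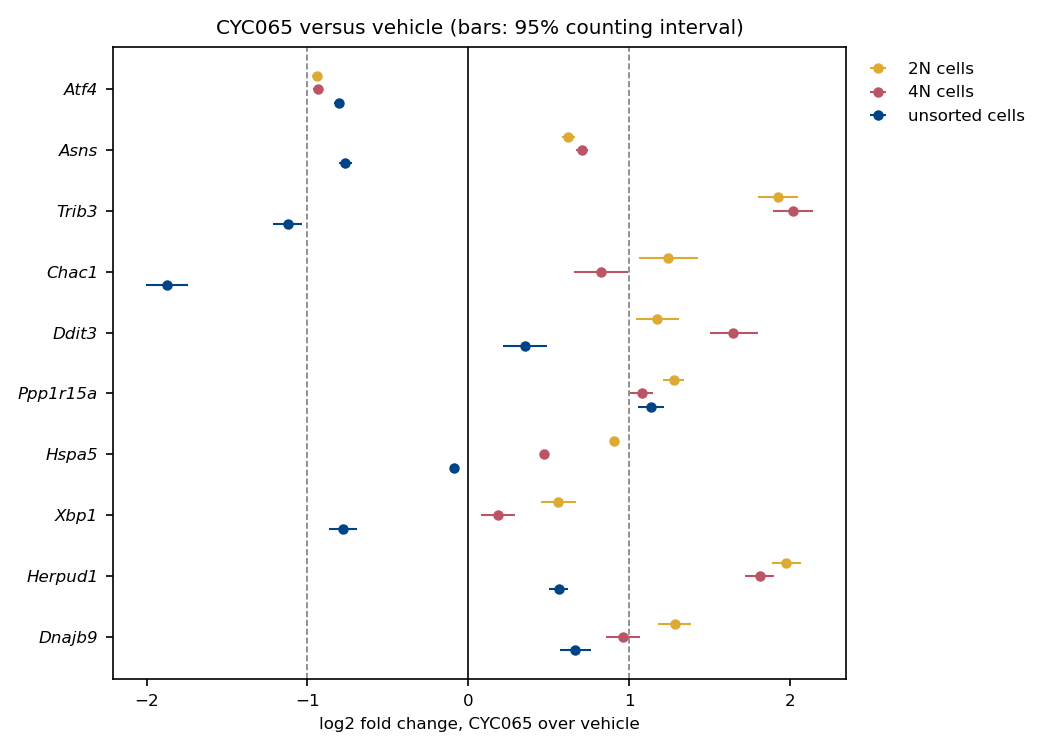
Log2 fold change of CYC065 over vehicle for each gene in 2N, 4N and unsorted cells, 1 library against 1 library. Points are the estimates, bars the 95% counting intervals, and dashed lines mark -1 and 1. Trib3, Asns, Chac1, Hspa5 and Xbp1 lie right of 0 in sorted and left of 0 in unsorted cells.

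Past 1 on the log2 scale, 6 of the 10 members were higher after CYC065 in 2N cells (*Ddit3*, *Trib3*, *Chac1*, *Ppp1r15a*, *Herpud1* and *Dnajb9*), where 16.2% of all genes were called higher, and 0 were lower, against 11.4% of genes. In 4N cells 4 were higher (*Ddit3*, *Trib3*, *Ppp1r15a* and *Herpud1*), against 15.5% of genes, and 0 lower, against 10.1%. *Dnajb9* lay at 0.96 in 4N cells and reached 1.00 without replicate column 1 and 1.04 with library size scaling. In unsorted cells 1 member was higher (*Ppp1r15a*) and 2 were lower (*Trib3* and *Chac1*), and 12.6% of genes were called in each direction. The median log2 fold change of the members was 1.21 in 2N, 0.89 in 4N and -0.43 in unsorted cells, beside 0.01, 0.03 and -0.01 over all genes tested.

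Over the 3 populations together, 4 members rose, against 27.7% of 14762 genes, and 1 fell, against 27.1%. The 5 members with opposite signs did not pass: the adjusted P was 0.237 for *Trib3*, 0.589 for *Asns*, 0.895 for *Chac1*, 0.103 for *Hspa5* and 0.970 for *Xbp1* (edgeR quasi-likelihood test). Without a filter on low counts, *Hspa5* passed (0.43, edgeR quasi-likelihood test, adjusted P = 0.0469). That fit gives 1 mean effect to populations that differed in sign. In the same model on the 4 sorted libraries alone, all 10 members passed, 9 higher, against 32.8% of genes, and *Atf4* lower, against 31.0%. There *Trib3* rose by 1.97 (edgeR quasi-likelihood test, adjusted P = 5.0e-08), *Chac1* by 1.03 (9.2e-05), *Asns* by 0.67 (7.5e-05), *Hspa5* by 0.69 (0.00037) and *Xbp1* by 0.37 (0.0162). With 1 residual degree of freedom, that fit rests on the likeness of 2N and 4N cells.

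Unsorted and sorted cells were also compared within each treatment. Sorted cells were stained, washed and passed through a sorter that kept 2N and 4N cells only. The methods do not say whether unsorted cells were handled alike. Handling and the choice of cells cannot be told apart in this contrast, nor in a CYC065 effect that differs between sorted and unsorted cells. Under vehicle, 4 members were past 1 on the log2 scale higher in unsorted than in sorted cells (2N and 4N summed), against 7.15% of genes, and 0 were lower, against 4.01%. These were *Chac1* at 2.62 (2.51 to 2.74), *Trib3* at 2.28 (2.19 to 2.38), *Herpud1* at 1.73 (1.66 to 1.81) and *Xbp1* at 1.36 (1.28 to 1.44). *Hspa5* (0.82), *Asns* (0.74), *Ddit3* (0.56), *Dnajb9* (0.42) and *Atf4* (0.05) were higher by less. With counting intervals that excluded 0, 9 members were higher, against 36.4% of genes. *Ppp1r15a* alone was lower, at -0.36 (-0.44 to -0.28), against 39.5% of genes.

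After CYC065, 0 members were past 1 in either direction between unsorted and sorted cells, where 3.26% of genes were called higher and 4.27% lower. By counting intervals, *Atf4* (0.19), *Hspa5* (0.04), *Xbp1* (0.22) and *Herpud1* (0.41) were higher in unsorted cells, against 31.3% of genes. *Trib3* (-0.81), *Asns* (-0.70), *Ddit3* (-0.47), *Ppp1r15a* (-0.40) and *Chac1* (-0.27) were lower, against 36.7% of genes. Scaling by library size alone changed the log2 library size against TMM by 0.12 in treated unsorted cells. In treated 2N and 4N cells it changed by -0.05 and -0.09. These are offsets from the mean of the 6 libraries, and they add up in this contrast. *Trib3* then stood at -1.01, while *Atf4* (-0.0014) and *Hspa5* (-0.15) turned lower in unsorted cells. These comparisons share libraries with those of CYC065 against vehicle, so the same values underlie both. Over both treatments together, 0 members passed, where 2.45% of genes were higher and 1.84% lower in unsorted cells by the edgeR quasi-likelihood test. At an unadjusted P below 0.05 there were 3 members and 4198 of 14762 genes, and DESeq2 called 2073 genes and 3 members, *Xbp1* and *Herpud1* higher (adjusted P = 0.0193 and 0.0013) and *Ppp1r15a* lower (adjusted P = 0.039).

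**Figure D3:**
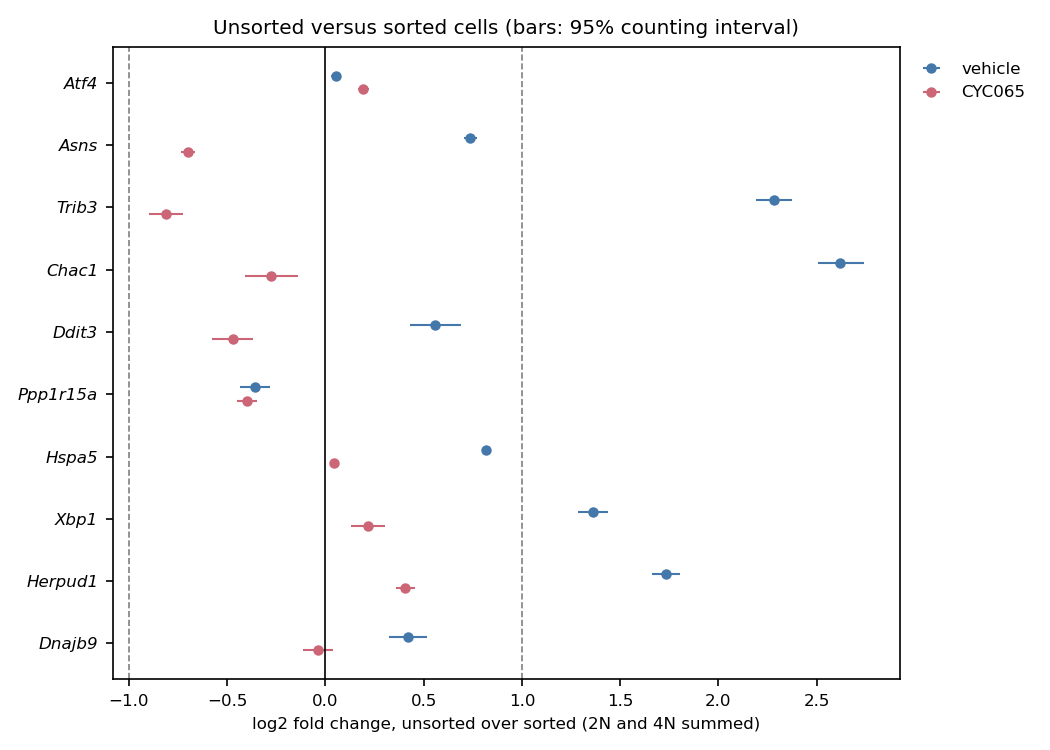
Log2 fold change of unsorted over sorted cells (2N and 4N libraries summed) for each gene, under vehicle (blue) and after CYC065 (red). Bars are 95% counting intervals and dashed lines mark -1 and 1. Under vehicle, Chac1, Trib3, Herpud1 and Xbp1 lie beyond 1, and after CYC065 no gene does.

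Between 4N and 2N cells each member differed by less than 1 on the log2 scale. Past 1 on the log2 scale, 0 were called under vehicle, where 0.995% of genes were higher and 1.69% lower in 4N cells, and 0 after CYC065, where 1.48% were higher and 2.08% lower. Over both treatments together, the edgeR quasi-likelihood test called 0 members and 0.0% of genes in either direction. There were 520 genes and 1 member, *Ppp1r15a* (log2 -0.32), at an unadjusted P below 0.05, while DESeq2 called 98 genes and limma-voom 0.

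Smaller differences between 4N and 2N cells exceeded counting error. After CYC065, 8 members were lower in 4N cells with intervals that excluded 0, against 27.6% of genes, and *Asns* was higher (0.13), against 27.5%. The largest were *Dnajb9* at -0.49 (-0.58 to -0.41), *Ppp1r15a* at -0.42 (-0.47 to -0.37) and *Hspa5* at -0.40 (-0.42 to -0.38), while the interval of *Trib3* held 0 (-0.02, -0.10 to 0.06). Under vehicle, 4 were lower (*Ddit3*, *Ppp1r15a*, *Dnajb9* and *Atf4*), against 26.8% of genes, led by *Ddit3* at -0.61 (-0.79 to -0.44), and *Xbp1* (0.21) and *Hspa5* (0.04) were higher, against 26.9%. Without replicates across cultures, differences of this size have no check beyond counting.

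**Figure D4:**
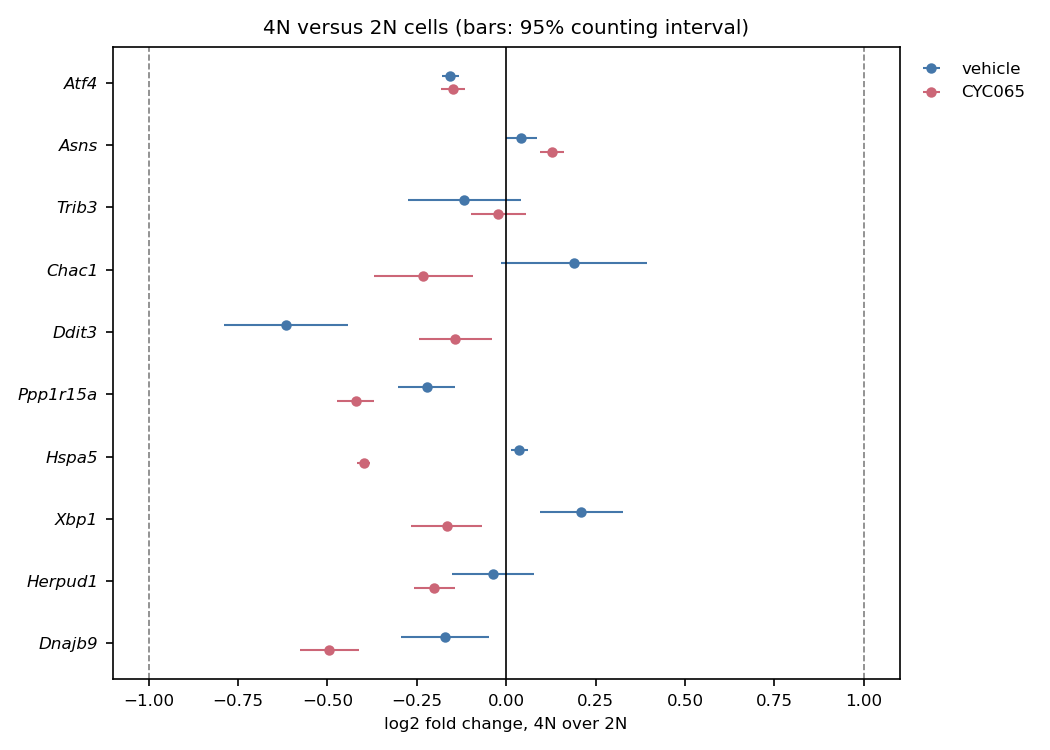
Log2 fold change of 4N over 2N cells for each gene, under vehicle (blue) and after CYC065 (red), 1 library against 1 library. Bars are 95% counting intervals and dashed lines mark -1 and 1. All points lie between -0.61 and 0.21.

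Levels can be compared between genes only per transcript length. In vehicle unsorted cells *Atf4* (277 CPM per kb of its principal transcript), *Hspa5* (228) and *Asns* (121) were the most abundant members. *Herpud1* (35.9 CPM per kb), *Trib3* (26.8), *Chac1* (25.4), *Xbp1* (25.1) and *Ddit3* (16.1) were intermediate, and *Ppp1r15a* (11.8) and *Dnajb9* (9.85) were the lowest. In treated 2N cells *Hspa5* stood first (240 CPM per kb), ahead of *Atf4* (147) and *Asns* (110), and *Chac1* last (9.13). In vehicle 2N cells *Chac1* (3.85 CPM per kb) and *Trib3* (5.74) were at the bottom, where they had been among the intermediate genes in unsorted cells.

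Other genes of these pathways came from 8 lists of 102 genes in all, of which 99 were tested in the 3 comparisons of CYC065 with vehicle. Of these, 31 were higher in all 3 populations, against 30% of all genes, 23 were lower in all 3, against 31.7%, and 14 were higher in 2N and 4N and lower in unsorted cells. The last group, against 2.27% of all genes, was made up of 6 amino acid synthesis and one-carbon genes, 5 aminoacyl-tRNA synthetase genes and 1 gene each of the lists of stress effectors, amino acid transporters and ER-associated degradation. In the opposite direction there were 2, against 2.47% of all genes. The lists were chosen with earlier results of these data known, so these counts describe the lists and are not an independent check.

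**Figure D5:**
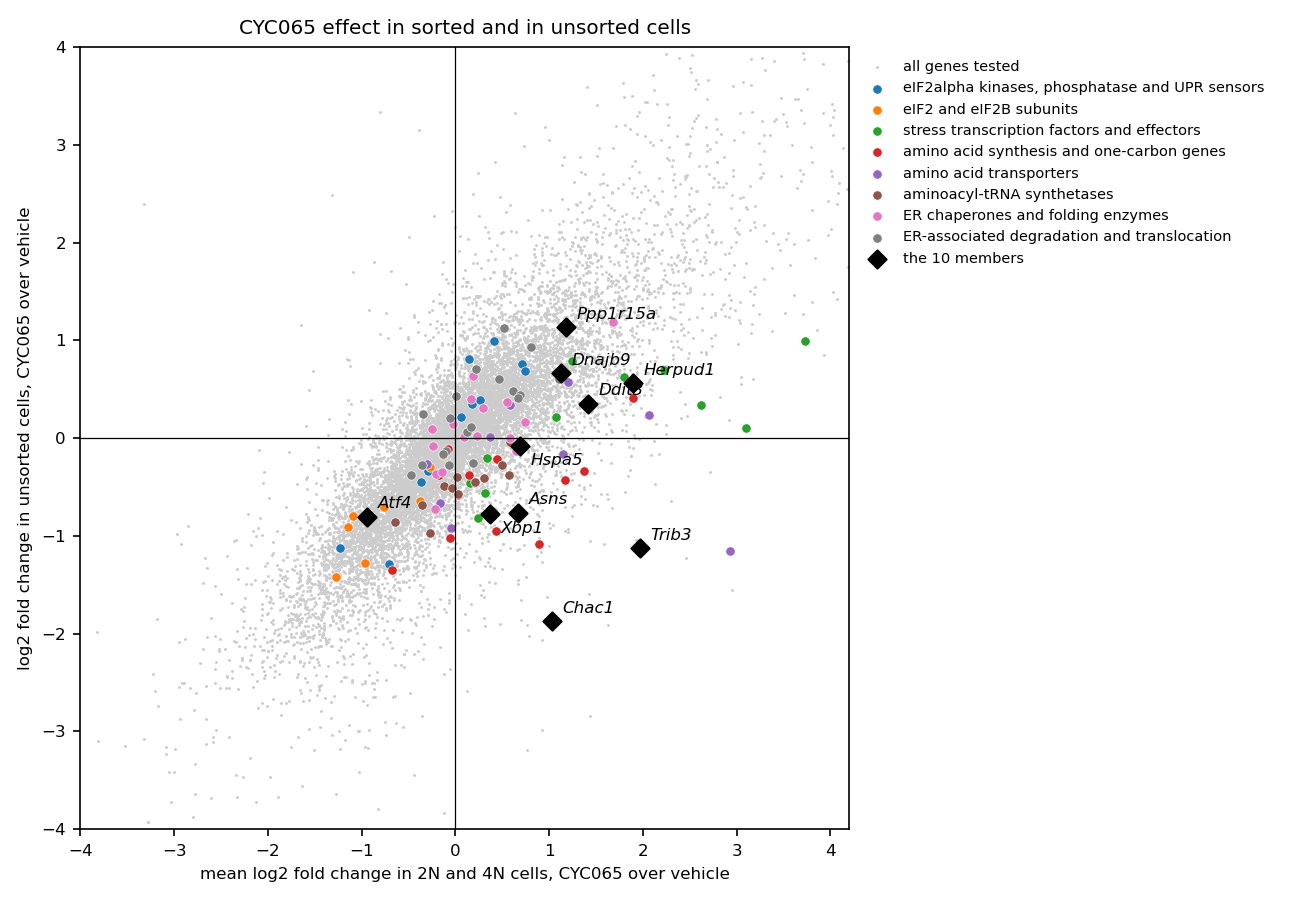
Log2 fold change of CYC065 over vehicle in unsorted cells (vertical) against the mean of the 2N and 4N values (horizontal). Grey points are the 13537 genes tested, of which 113 lie outside the plotted range, coloured points the pathway lists and black diamonds the 10 members. Trib3 and Chac1 lie at the lower right, away from the grey diagonal.

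The upstream list holds 11 genes for the eIF2α kinases, the phosphatase partners and the ER sensors, and 4 rose and 4 fell over the populations by the edgeR quasi-likelihood test, against 27.7% and 27.1% of all genes. The PERK gene *Eif2ak3* rose by 0.72 (adjusted P = 0.00182), with 28.0, 18.1 and 19.8 CPM in vehicle unsorted, 2N and 4N cells and 47.2, 30.9 and 31.0 CPM after CYC065. The IRE1 gene *Ern1* rose by 0.60 (adjusted P = 0.0197), and so did *Mbtps1* (0.30), which cleaves ATF6, and *Nck1* (0.72), an adaptor that modulates eIF2α phosphorylation. The PKR gene *Eif2ak2* fell by 0.90 (adjusted P = 0.00367), and *Atf6b*, a homologue of *Atf6*, fell by 1.20 (adjusted P = 0.00047), while *Ppp1r15b*, the constitutive partner of the eIF2α phosphatase, fell by 0.39 and *Mbtps2* by 0.31. *Eif2ak1* (0.11), *Eif2ak4* (0.24) and *Atf6* (0.37) did not pass. None of the 11 was higher in sorted and lower in unsorted cells, a pattern held by 2.27% of all genes, so its absence from a list of 11 says little.

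Of 8 genes for subunits of eIF2 and its exchange factor eIF2B, 0 rose and 6 fell over the populations (edgeR quasi-likelihood test), against 27.7% and 27.1% of all genes, and 2 did not pass, with a list median of -0.87 on the log2 scale. The gene with the largest change was *Eif2b5*, the catalytic subunit of eIF2B, which fell by 1.32 (adjusted P = 0.00044). It stood at 56.8, 62.7 and 65.0 CPM in vehicle unsorted, 2N and 4N cells and at 21.2, 26.8 and 26.1 CPM after CYC065.

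Among stress transcription factors and effectors, 7 of 11 tested were past 1 higher in 2N cells, 7 in 4N cells and 0 in unsorted cells, against 16.2%, 15.5% and 12.6% of all genes. Over the populations 6 rose by the edgeR test, against 27.7%, and 0 fell, against 27.1%. Named after its values were seen, *Ddit4*, an inhibitor of mTORC1 signaling, had the largest values of this list, at 3.74 in 2N, 3.70 in 4N and 0.99 in unsorted cells. Its level was 52.8, 4.48 and 3.55 CPM in vehicle unsorted, 2N and 4N cells and 105, 60.2 and 46.2 CPM after CYC065. Vehicle unsorted cells lay 3.72 above vehicle sorted cells on the log2 scale.

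Of the amino acid synthesis and one-carbon genes, 12 were tested in 2N and unsorted cells, where their median log2 values were 0.33 and -0.41, and 13 in 4N cells, with a median of 0.41. Over the populations 2 of 13 rose, against 27.7% of all genes, and 1 fell, against 27.1%, and the same shares apply to the counts of the next lists. The 9 amino acid transporters had medians of 0.59, 0.58 and -0.16 in 2N, 4N and unsorted cells, and 3 rose and 1 fell. Named after its values were seen, *Slc7a11*, the cystine transporter, stood at 53.1, 3.60 and 4.32 CPM in vehicle unsorted, 2N and 4N cells and at 23.8, 32.1 and 28.0 CPM after CYC065. Its log2 fold changes were 3.16, 2.70 and -1.16, signs like those of *Trib3* and *Chac1*. By counting intervals it was the only 1 of the 9 transporters with this pattern, while 3 were higher and 2 lower in all populations. The 12 aminoacyl-tRNA synthetases had medians of 0.03, 0.06 and -0.47, and 0 rose and 3 fell.

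Genes of the ER made up the last pair of lists. Of 17 ER chaperones and folding enzymes, 4 rose and 0 fell over the populations, with medians of 0.24, 0.10 and 0.10 in 2N, 4N and unsorted cells. *Ero1l*, an oxidase that supplies disulfide bonds, rose by 1.51 (edgeR quasi-likelihood test, adjusted P = 0.00055), with 197, 123 and 137 CPM in vehicle unsorted, 2N and 4N cells and 448, 399 and 431 CPM after CYC065. Its paralogue *Ero1lb* rose by 1.15 (adjusted P = 0.00099). Of 19 genes of ER-associated degradation and translocation, 7 rose and 2 fell, with medians of 0.21, 0.11 and 0.25. The counts of both lists stand against 27.7% of all genes that rose and 27.1% that fell.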

How the data were processed

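RNA-Seq of ED1SQ4 cells gave a table of 55450 genes by 18 columns. The deposited values are expected counts, which the authors estimated with RSEM (1.3.1 per the submitters' processing notes, a later version per the study's methods) on GENCODE M21 after demultiplexing with bcl2fastq, trimming with Cutadapt 1.18 and alignment to mm10 with STAR 2.7.0f. The authors neither normalized nor filtered them, and 9.66% of genes hold a fractional value, since RSEM divides ambiguous reads. Of the members, only *Ddit3* does. Libraries were stranded total RNA depleted of ribosomal RNA. The expected counts were rounded after summing the 3 columns of each condition.

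Summed libraries were scaled by TMM in edgeR 4.0.16 (R 4.3.3). A gene was tested in a pair of conditions if at least 1 held a summed count of at least 30. Log2 fold changes used a prior count of 0.5, with Clopper-Pearson 95% counting intervals. The fit over libraries used the terms population and treatment, with 2 residual degrees of freedom (biological coefficient of variation 0.165) and an adjusted P threshold of 0.05. DESeq2 1.42.0 and limma 3.58.1 were alternatives. The method was run on simulated data with a smaller spread than that of the libraries and the same change in each population. That run did not cover genes whose sign differs between populations. The same-numbered columns of different conditions did not deviate together (correlations of -0.217 to 0.110, median -0.004), so numbers do not pair columns.

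The members, pathway lists and markers were chosen with earlier results of these data known. The genes named are the 10 members, all upstream kinases and sensors, and of each list up to 4 genes past 1 on the log2 scale in the same direction in all 3 comparisons. *Ddit4* and *Slc7a11* fall outside that rule and were named after their values were seen, *Vim* and other markers were named for the check of the labelled tissue, and *Mars*, *Tulp2*, *Gm15890* and *Mir5627* for their overlap with a member. Python 3.11.15 with pandas 2.3.3 and matplotlib 3.10.9 made tables and figures.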

Additional observations from a re-analysis of the deposited data

Results flagged for a closer look

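The effect of CYC065 had opposite signs in sorted and unsorted cells for 5 members. The log2 fold change in unsorted cells minus the mean of those in 2N and 4N cells was -3.095 for *Trib3*, -2.906 for *Chac1*, -1.431 for *Asns*, -1.153 for *Xbp1* and -0.776 for *Hspa5*. Each of these differences rests on 1 library per condition and was not tested.

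The difference between 4N and 2N cells also had opposite signs under the 2 treatments for 2 members. For *Hspa5* the value under vehicle was small, at 0.036 (0.0125 to 0.060), and 0.061 with DESeq2 size factors, against -0.40 after CYC065. *Xbp1* stood at 0.21 under vehicle and -0.17 after CYC065. The log2 fold change of 4N over 2N cells after CYC065 minus that under vehicle was -0.4351 for *Hspa5* and -0.3765 for *Xbp1*, and these differences were not tested either.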

How the results depend on the processing

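Every member kept its direction pattern (5 higher in sorted and lower in unsorted cells, 4 higher and 1 lower in all 3) under the 9 other settings tried for it, which were added after seeing the data and cover scaling, filters, prior count and each column left out. The prior count does not enter the counting interval, and every member passed the filters, so these settings could not change a member. A column left out shares 1 library name with those kept, which leaves the scaling as the main check. The number of all genes with the first pattern moved from 307 to 660 with library size scaling. That scaling added *Dnajb9* to the calls in 4N cells (5 members), added *Trib3* as 1 call between unsorted and sorted cells after CYC065 and moved the share of called genes higher in unsorted cells there from 43.3% to 23.8%. A fit on the columns with a replicate block called 6, 4 and 3 members in 2N, 4N and unsorted cells, and 3869, 3605 and 3519 genes, against 3867, 3603 and 3517 without it, so the block changed no call of a member. The 4 sorted libraries alone called 10 members for CYC065 (*Xbp1* at 0.37, adjusted P = 0.0162 by edgeR) and 228 genes between 4N and 2N cells. Calls between 4N and 2N cells over both treatments were 21 genes without a filter, 98 with DESeq2 and 0 to 4 with a column left out. Between unsorted and sorted cells over both treatments there were 2 members and 1662 genes without a filter and 3 members and 2073 genes with DESeq2, against 633 genes.

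Without a filter, genes called by fold rose to 11606, 10938 and 10267 for CYC065 in 2N, 4N and unsorted cells, to 7217 and 5448 for 4N versus 2N cells after CYC065 and under vehicle, and to 7772 and 8622 for unsorted versus sorted cells under vehicle and after CYC065. For the last 4 comparisons in that order, a count of at least 100 left 218, 120, 962 and 570, and an interval wholly beyond 1 left 163, 72, 853 and 431. In the fits over libraries, signs turned for members that had not passed: *Xbp1* for CYC065 (0.0004489 with library size, and 0.37 as given for the sorted libraries), *Chac1* for CYC065 (-0.23 with limma-voom), *Asns* (-0.0065 with library size) and *Ddit3* (-0.0196 with library size, -0.049 with limma-voom) for unsorted versus sorted cells, and *Xbp1* for 4N versus 2N cells (0.0187 with library size, 0.0025 with DESeq2 size factors, 0.0249 with limma-voom, 0.0191 in sorted libraries, -0.0461 to 0.0217 with a column left out). The causes were not tested. With 1 library per condition, the spread between cultures limits every comparison.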
